A study of Octopus bimaculoides with 6 samples.

Results

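The methyl-CpG binding domain (MBD) family of *Octopus bimaculoides* was represented by 5 annotated coding transcripts, MBD2 (Ocbimv22038790m), MBD2.1 (Ocbimv22038791m), MBD4 (Ocbimv22026836m), MBD5 (Ocbimv22010669m) and MBD5.1 (Ocbimv22010670m). They were taken by target ID and carry the names of the study's list of DNA methylation factors. They are 5 of 38556 coding targets and of 40327 quantified targets in all. The study's list assigns MBD2 and MBD2.1 to the same gene and the other transcripts to a gene each, so the 5 transcripts stand for 4 genes. MBD5 and MBD5.1 carry neighboring IDs.

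Expression was measured by RNA-seq of total RNA depleted of ribosomal RNA, in wild-caught animals that received no experimental treatment. Arm L1 of the adult male OB-5 gave 3 libraries, from transverse sections at 1.5 cm (distal), 3.5 cm (medial) and 5.5 cm (proximal) from the tip. The tip of arm L1, up to 1.5 cm, gave a library from the adult male OB-2 and a library from the adult female OB-9, and the last library came from a whole-body hatchling at 30 days post fertilization (dpf). Each condition was therefore 1 library without replicates, the sections shared an animal, and the age of the adults was not given in the sources used here.

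MBD proteins share a domain that, in vertebrates, recognizes methylated cytosine in the CpG context, and they are counted among the readers of DNA methylation. In mammals, MBD2 links methylated DNA to the NuRD chromatin remodeling and histone deacetylase complex, and MBD4 is a DNA glycosylase that removes thymine left by deamination of methylated cytosine. Mammalian MBD5 binds a deubiquitinase complex acting on histone H2A, and its domain does not bind methylated DNA with the affinity seen for MBD2. These roles come from other species and were not measured in octopus.

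The libraries held 3161353 (distal) to 9081923 (hatchling) estimated counts. Non-coding targets took 39.8% (medial) and 47.3% (proximal) of the deposited TPM, the count per unit of transcript length scaled to a fixed total, and 61.6% to 63.5% in the other 4 libraries. The levels below are therefore TPM recomputed over the coding targets, which multiplied the deposited value of each coding transcript by 1.66 in the medial section and by up to 2.74 in the female tip. All intervals are 95% intervals for counting error alone, of reads without molecular tags, and neither the variation between animals nor the division of reads between similar targets is included. Libraries are called apart for a transcript when the interval of their ratio excluded 1. That depends on the counts of the transcript as well as on the ratio. The share of coding targets apart was not computed, so numbers of pairs apart describe a member and are not a trait particular to it. In bulk tissue, fewer cells of a type and less RNA per cell cannot be told apart. Nerve markers (5 transcripts of synaptotagmin-1, complexin and piccolo) and muscle markers (4 dystrophin transcripts) were all above 0 in every library, and the male germ line marker TSSK2 was listed at 0 or at 1 count.

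MBD5.1 (5658 bases) was the most deeply counted member, with 226 to 598 estimated counts per library. Its level was 8.80 TPM in the hatchling, 11.3 in the medial, 13.8 in the proximal and 17.7 in the distal section, 21.8 in the male and 30.0 in the female tip. The female tip was the highest and the hatchling the lowest, and the 3 sections of OB-5 lay between the hatchling and the tips. All 15 pairs of libraries were apart. From lowest to highest library the ratio was 3.41, and the female tip exceeded the hatchling by that factor with an interval of 2.99 to 3.89.

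MBD5 (390 bases) followed the same order of libraries, from 24 to 52.0 estimated counts. It stood at 19.0 TPM in the hatchling, 28.7 in the medial, 33.0 in the proximal and 46.4 in the distal section, 58.0 in the male and 63.0 in the female tip. No neighbors in this order were apart at these counts, but the hatchling was apart from all adult libraries except the medial section, and both tips were apart from the medial and proximal sections. The female tip was 3.33 times the hatchling, with an interval of 2.08 to 5.25. Altogether 8 of 15 pairs were apart.

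MBD5 and MBD5.1 thus kept nearly 1 ratio. Per effective length, MBD5 was 2.15 times MBD5.1 in the hatchling, 2.54 in the medial, 2.39 in the proximal and 2.62 in the distal section, 2.66 in the male and 2.1 in the female tip. The intervals of the 6 libraries overlapped, the hatchling's running from 1.48 to 3.11 and the male tip's from 1.95 to 3.57. Over the 6 libraries, the log2 levels of MBD5 and MBD5.1 had a Pearson r of 0.97 and a Spearman rho of 1.00, given as a description, since the libraries share animals and differ in depth. The size of the ratio depends on how length enters. MBD5 had an effective length of 199 to 234 bases, and with full target lengths the ratio was 1.23 to 1.58. MBD5 was at a whole estimated count (within 0.01) in 3 of 6 libraries, against 6 of 6 for MBD5.1, and the sum of both was whole in 3, so the reads that MBD5 shared in the other 3 libraries were divided with a target other than MBD5.1.

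**Figure D1:**
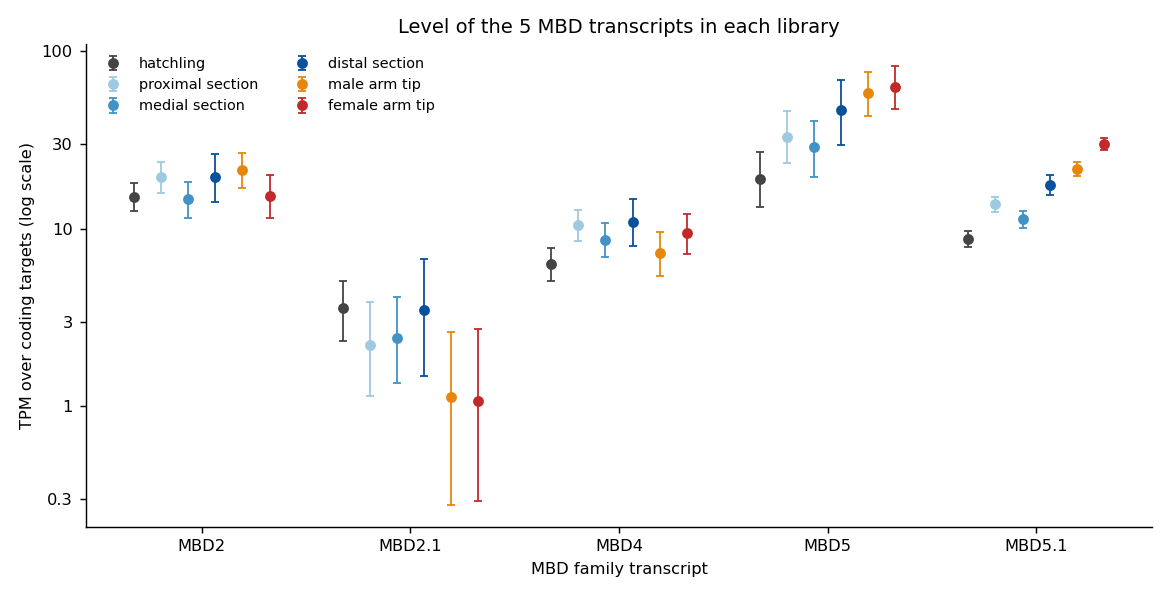
Level of each MBD transcript, as TPM over coding targets on a log axis, in the 6 libraries; points are single libraries and bars are 95% counting intervals. MBD5 and MBD5.1 were lowest in the hatchling (19.0 and 8.80 TPM) and highest in the female tip (63.0 and 30.0 TPM), and MBD2.1 was lowest in both tips.

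MBD2 (1070 bases) varied less. Its level was 15.1 TPM in the hatchling, 14.6 in the medial, 19.5 in the proximal and 19.5 in the distal section, 21.4 in the male and 15.3 in the female tip, from 42.9 to 114 estimated counts. The highest library was 1.46 times the lowest. The male tip was apart from the medial section (1.46-fold, interval 1.06 to 2.04) and from the hatchling (1.41-fold, 1.05 to 1.90), and the other 13 pairs were not apart. The order of libraries was not the same on other scales: MBD2 was highest in the proximal section both with the deposited TPM and with counts scaled by the trimmed mean of M-values (TMM).

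MBD2.1 (1131 bases), the other transcript of the MBD2 gene, was the least abundant member, with 4.01 to 28.3 estimated counts. It had 3.57 TPM in the hatchling, 2.44 in the medial, 2.23 in the proximal and 3.49 in the distal section, 1.13 in the male and 1.07 in the female tip. Both tips were below the other 4 libraries, and this also held with the deposited TPM and with TMM. The hatchling was apart from the male tip (3.14-fold, 1.20 to 13.5) and from the female tip (3.32-fold, 1.15 to 12.9), and no other pair was.

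Quantification divided shared reads between MBD2 and MBD2.1. Neither had a whole estimated count in any library, while their sum was whole in all 6, from 51.0 to 142 counts, so their separate levels are less certain than their sum. The summed level ranged from 16.4 TPM in the female tip to 22.9 in the distal section. Of the summed counts, MBD2.1 held 19.9% in the hatchling (exact binomial interval 13.5% to 27.2%), 15.1% in the medial, 10.8% in the proximal and 16.0% in the distal section, 5.34% in the male (1.33% to 11.9%) and 6.92% in the female tip (1.91% to 16.7%). The hatchling's share was above that of the male tip beyond counting error, while its interval overlapped that of the female tip. As a ratio of MBD2.1 to MBD2, the hatchling was 4.44 times the male tip (1.64 to 12.0), 3.36 times the female tip (1.19 to 9.55) and 2.06 times the proximal section (1.01 to 4.22), and these pairs were apart. These ratios within a library do not change with the scaling between libraries.

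MBD4 (2023 bases) had 6.32 TPM in the hatchling, 8.66 in the medial, 10.5 in the proximal and 11.0 in the distal section, 7.29 in the male and 9.42 in the female tip, from 44 to 99 estimated counts. The hatchling was lowest and the highest library was 1.73 times as high. No neighbors in the order were apart, and 5 of 15 pairs were, 4 of them against the hatchling. The fifth was the proximal section against the male tip, at 1.43-fold (1.01 to 2.06). With TMM the lowest library was the male tip.

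Within a library, levels per effective length kept much the same order. MBD5 stood first in all 6 libraries, MBD4 next to last and MBD2.1 last. In the hatchling MBD5 was not apart from MBD2 (1.25-fold, 0.83 to 1.88). MBD2 was above MBD5.1 in the 3 sections and the hatchling, by 1.1-fold (distal) to 1.72-fold (hatchling), but these were not apart in the distal and medial sections. In the tips MBD5.1 stood above MBD2, by 1.02-fold in the male (0.80 to 1.30) and by 1.96-fold in the female tip (1.48 to 2.64). With full target lengths, MBD2 took the first place in the hatchling and the proximal section. Among all coding targets of a library, MBD5 ranked at the 82.0 to 93.4 percentile, MBD5.1 at the 67.2 to 83.8, MBD2 at the 69.5 to 81.5, MBD4 at the 55.0 to 70.0 and MBD2.1 at the 24.0 to 47.8 percentile.

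The hatchling was then compared with the mean log2 level of the 5 adult arm libraries, a comparison of stage that also sets a whole body against arm tissue. MBD5 and MBD5.1 were lower in the hatchling and MBD2.1 was higher, while MBD2 and MBD4 lay closer to the bulk of coding transcripts. The log2 ratio was -1.21 for MBD5 (-1.74 to -0.67), -1.02 for MBD5.1 (-1.18 to -0.86), -0.55 for MBD4 (-0.90 to -0.21), -0.24 for MBD2 (-0.55 to 0.06) and 0.85 for MBD2.1 (0.14 to 1.56). In this comparison 2 of 5 members were at least 2-fold lower and none was at least 2-fold higher, beside 20.9% and 11.8% of the 27713 coding targets with at least 20 estimated counts. The median of these targets was itself at -0.31, and it moved to -0.57 with the deposited TPM and to 0.09 with TMM. Relative to the median, MBD5 was at -0.89, MBD5.1 at -0.71, MBD4 at -0.24, MBD2 at 0.07 and MBD2.1 at 1.16. Under the deposited TPM, TMM, removal of the 10 most abundant coding targets and an added 1 TPM, these relative values ranged from -0.90 to -0.85 for MBD5, from -0.71 to -0.68 for MBD5.1 and from 0.91 to 1.16 for MBD2.1. MBD2, whose unadjusted ratio changed sign to 0.16 with TMM, stayed within 0.08 of the median. The calls rested on the scaling. With the deposited TPM MBD5 and MBD5.1 stayed at least 2-fold lower. With TMM neither did (-0.77 and -0.63) and MBD2.1 was at least 2-fold higher (1.25), beside 10.8% of coding targets that were lower and 18.5% that were higher. MBD5.1 was past 2-fold in part through the tips: without the female tip its log2 ratio was -0.83, without the male tip -0.95, and MBD5 was then the only member past 2-fold. MBD2.1 also passed 2-fold without the distal section (1.07) and when the adult libraries were averaged over the 3 animals (1.16), which made 3 members past it.

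**Figure D2:**
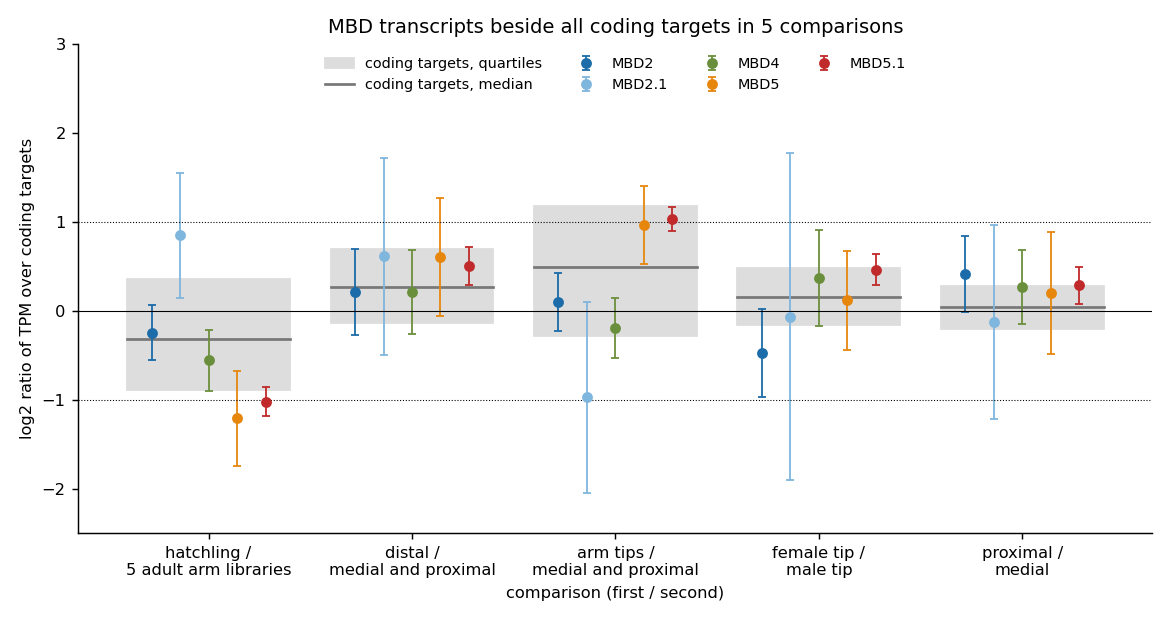
Log2 ratio of TPM over coding targets for the 5 MBD transcripts in 5 comparisons, with 95% counting intervals; gray boxes and lines are the quartiles and median of all coding targets with at least 20 estimated counts, and dotted lines mark a 2-fold difference. MBD5 (-1.21) and MBD5.1 (-1.02) lay below the lower quartile in the hatchling comparison, and MBD2.1 lay above the upper quartile there (0.85) and below the lower quartile for the arm tips (-0.97).

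Along the arm of OB-5, the distal section was compared with the mean of the medial and proximal sections. None of the 5 members was at least 2-fold apart, beside 14.6% of 22848 coding targets that were higher and 5.86% that were lower in the distal section. The log2 ratios were 0.61 for MBD2.1, 0.60 for MBD5, 0.51 for MBD5.1 and 0.21 for both MBD2 and MBD4, against a median of 0.27 over the coding targets. The interval excluded 0 for MBD5.1 alone (0.29 to 0.72). Relative to the median, MBD5.1 was at 0.24 (0.02 to 0.45), MBD5 and MBD2.1 were each at 0.34, and MBD2 and MBD4 were each at -0.06. The direction of the unadjusted ratios rested on the scaling. With the deposited TPM all 5 were below 0, from -0.41 for MBD2 and MBD4 to -0.01 for MBD2.1, but the median of coding targets was then -0.36. With TMM MBD2 was at -0.10 and MBD4 at -0.12 while MBD2.1, MBD5 and MBD5.1 remained above 0, against a median of -0.03. Relative to the median, MBD2.1, MBD5 and MBD5.1 stayed above 0 and MBD2 and MBD4 below it under every scaling and offset used. The nerve markers summed to 708 TPM (distal), 246 TPM (proximal) and 253 TPM (medial), and their part in these ratios was not tested.

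The proximal and medial sections lay nearer to each other. The log2 ratio of proximal to medial was 0.41 for MBD2 (-0.01 to 0.84), 0.29 for MBD5.1 (0.08 to 0.49), 0.27 for MBD4, 0.20 for MBD5 and -0.13 for MBD2.1, with a median of 0.04 over coding targets. None was 2-fold apart, beside 3.59% of 21655 coding targets that were higher and 3.42% that were lower in the proximal section. Only the interval of MBD5.1 excluded 0, and with the deposited TPM it did not (0.09, -0.11 to 0.30).

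The tips of OB-2 and OB-9 were compared with the medial and proximal libraries of OB-5, so that position along the arm, the animal and, for the female tip, sex cannot be told apart. MBD5.1 and MBD5 were higher in the tips, at log2 ratios of 1.03 (0.90 to 1.17) and 0.97 (0.53 to 1.41). MBD2.1 was lower, at -0.97 (-2.04 to 0.10), and MBD4 and MBD2 were at -0.19 and 0.10. For MBD5.1, MBD5 and MBD2.1 the 2 tips did not overlap the 2 sections. The share of coding targets with the same separation is not given here, so it is only a description and not a trait of these members. MBD5.1 was the only member past 2-fold on the coding TPM, beside 31.3% of 25671 coding targets that were at least 2-fold higher and 10.7% that were at least 2-fold lower in the tips, so a 2-fold higher level was common among coding transcripts. On the other scales the member past 2-fold was MBD2.1, which was lower. With the deposited TPM MBD5.1 was at 0.44 and MBD2.1 at -1.56, beside 13.6% of coding targets higher and 21.8% lower, and with TMM they were at 0.56 and -1.39, beside 18.3% higher and 17.6% lower. The median of coding targets was at 0.49, against -0.10 with the deposited TPM and 0.09 with TMM. Relative to it, MBD5.1 was at 0.54 (0.41 to 0.67), MBD5 at 0.47 (0.03 to 0.92), MBD2 at -0.39 (-0.72 to -0.06), MBD4 at -0.69 (-1.03 to -0.35) and MBD2.1 at -1.47 (-2.54 to -0.39). These relative values kept their sign under all 4 other scalings and offsets, while the unadjusted ratio of MBD2 turned to -0.49 with the deposited TPM and to -0.31 with TMM. By percentile among the coding targets tested, MBD5.1 was at 69.8, MBD5 at 67.6, MBD2 at 36.5, MBD4 at 27.3 and MBD2.1 at 11.0. The number of members past 2-fold was 3 without the male tip or without the proximal section (MBD5.1, MBD5 and MBD2.1), and 0 without the female tip or without the medial section. The nerve markers summed to 384 and 396 TPM in the tips and the muscle markers to 17.2 and 17.8 TPM, against 14.7 and 15.5 TPM for muscle in the medial and proximal sections, and their part was not tested.

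Between the tips, which differ in sex and in animal, 4 of 5 members had at least 20 counts over both libraries, and MBD2.1, with 4.43 counts in the male and 4.01 in the female tip, was below that minimum. None of the 4 was 2-fold apart, beside 8.21% of 22544 coding targets that were higher and 4.39% that were lower in the female tip. MBD5.1 was 1.38 times as high in the female tip (1.22 to 1.56), and MBD2 went the other way, at 1.39 times as high in the male tip (0.98 to 2.02). The log2 ratios of female to male were 0.46 for MBD5.1, 0.37 for MBD4, 0.12 for MBD5 (-0.05 with TMM) and -0.47 for MBD2, with a median of 0.15. Relative to the median MBD5.1 was at 0.31 (0.13 to 0.48) and MBD2 at -0.63 (-1.13 to -0.13), the latter at the 11.8 percentile of the coding targets tested.

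The ratio of MBD5.1 to MBD2 within a library, chosen after the levels were seen, set these differences side by side on a scale that no library total enters. It was 0.58 in the hatchling (0.47 to 0.72), 0.71 in the proximal, 0.77 in the medial and 0.91 in the distal section, 1.02 in the male (0.80 to 1.30) and 1.96 in the female tip (1.48 to 2.64). The female tip was apart from each of the other 5 libraries, including the male tip, where the ratio was 0.52 times that of the female tip (0.36 to 0.75). The hatchling was apart from the distal section and both tips but not from the medial and proximal sections, and the 3 sections were not apart from each other. With MBD2 and MBD2.1 summed, the ratio ran from 0.47 in the hatchling to 1.83 in the female tip. The ratio of MBD4 to MBD2 was lowest in the male tip, at 0.34 (0.23 to 0.49), and highest in the female tip, at 0.61 (0.42 to 0.90).

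**Figure D3:**
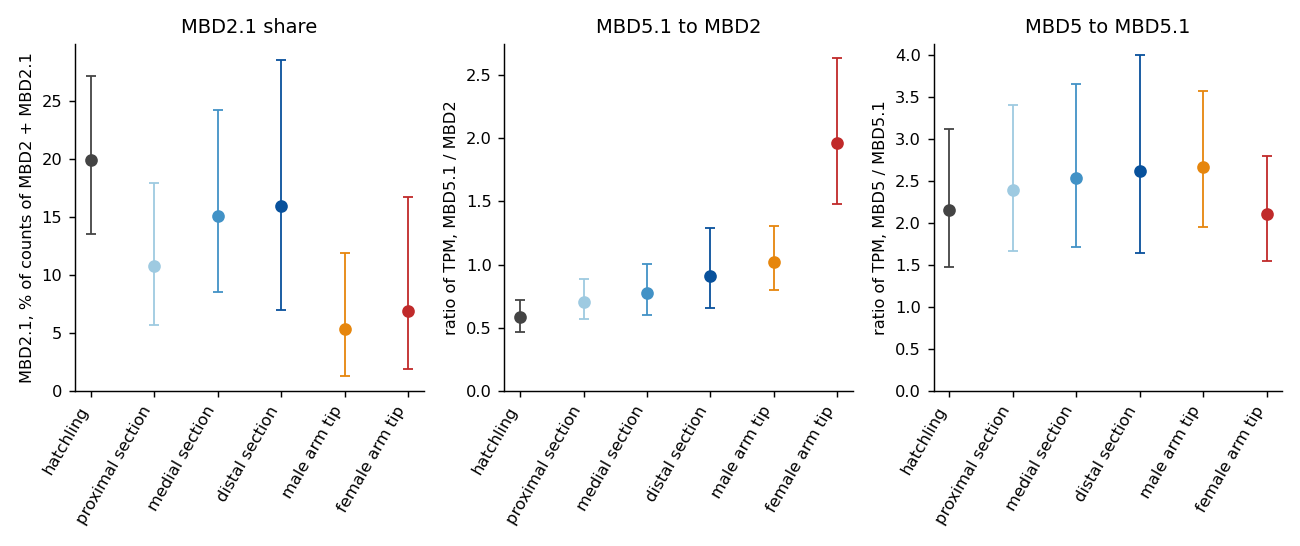
Measures taken within each library, with 95% counting intervals: the percentage of MBD2 plus MBD2.1 counts held by MBD2.1, and the TPM ratios of MBD5.1 to MBD2 and of MBD5 to MBD5.1. The MBD2.1 share was lowest in the tips (5.34% and 6.92%), the MBD5.1 to MBD2 ratio was highest in the female tip (1.96), and the MBD5 to MBD5.1 ratio stayed between 2.1 and 2.66.

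Not every member kept its highest and lowest libraries across the scalings. MBD2 changed its highest library and MBD4 its lowest, as given above. MBD5 and MBD5.1 were lowest in the hatchling with the coding TPM, the deposited TPM and TMM, and both tips were their 2 highest libraries each time. MBD2.1 had both tips as its 2 lowest libraries on the same 3 scales. The course of MBD5 and MBD5.1 was not particular to them. On the coding TPM the hatchling was also lowest and the tips highest for DNMT1, TET1 and TET2 of the DNA methylation list. DNMT1 had 8.79 TPM in the hatchling and 16.0 and 16.6 in the male and female tips, TET1 7.11, 19.8 and 19.6, and TET2 15.7, 28.7 and 26.5. DNMT1 kept this course with the deposited TPM. The share of coding targets with it was not computed. The place of the distal section was not stable: it was above the medial and proximal sections for MBD5 and MBD5.1 with the coding TPM and TMM, and below both with the deposited TPM, where MBD5.1 had 6.47 (distal), 6.81 (medial) and 7.26 TPM (proximal). Of 15 pairs for MBD5.1, 12 were apart with the deposited TPM and 14 with TMM. Summed over the family, the level was 52.8 TPM in the hatchling and 65.7 to 119 TPM in the adult arm libraries. Without MBD5 it was 33.8 TPM against 37.1 to 55.8 TPM. MBD5, the shortest member, held 35.9% to 53.0% of the sum.

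**Figure D4:**
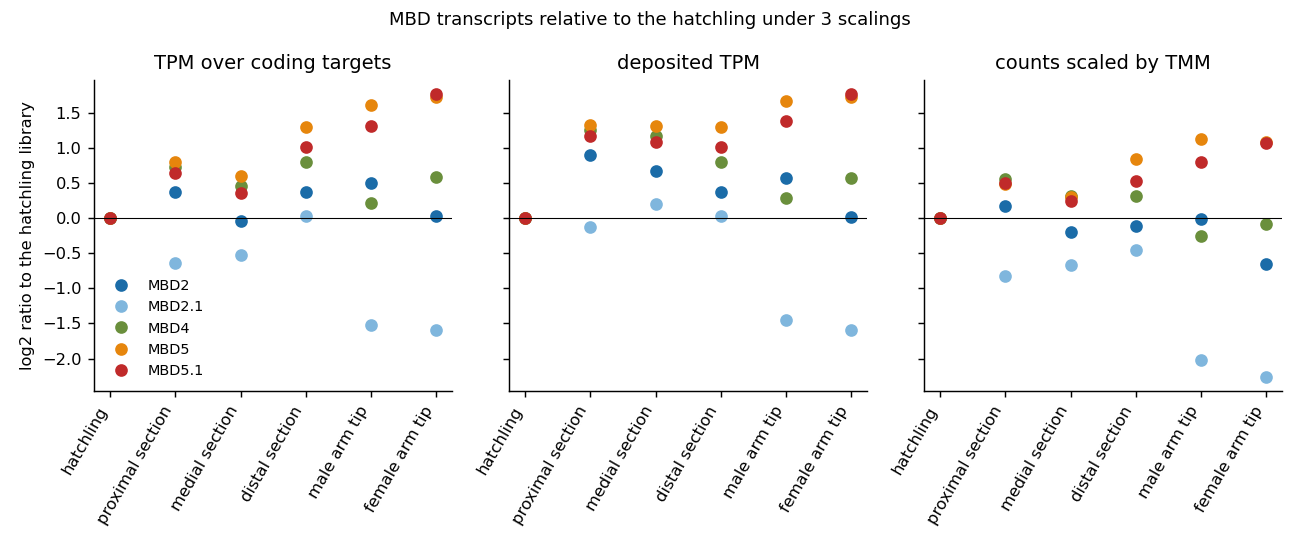
Log2 ratio of each library to the hatchling library for the 5 MBD transcripts, with 0.5 counts added, under TPM over coding targets, deposited TPM and TMM-scaled counts; each point is 1 library. MBD5 and MBD5.1 were above the hatchling in all 5 adult arm libraries in every panel, and MBD2.1 was below it in both tips.

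The other 7 transcripts of the DNA methylation list were read beside the members. They comprise the writers DNMT1, which in vertebrates maintains methylation, DNMT3B and DNMT3B.1, named for the de novo enzyme, the DNMT1 partner UHRF1, the oxidizing enzymes TET1 and TET2, and the glycosylase TDG. DNMT3B and DNMT3B.1 are listed as the same gene, and their estimated counts summed to a whole number in all 6 libraries, so a count of 0 for either and the calls of either may reflect how reads were divided, which was not tested. The summed level of both was 6.11 TPM in the hatchling, 4.19 in the medial, 4.09 in the proximal and 3.09 in the distal section, 5.94 in the male and 6.23 in the female tip, from 20 to 134 counts. In the hatchling 2 of 7 were at least 2-fold higher (DNMT3B and DNMT3B.1) and 1 was lower, beside 11.8% and 20.9% of coding targets, and the median log2 ratio of the 7 was -0.40, close to the -0.55 of the 5 MBD transcripts and the -0.31 of all coding targets. The higher calls rested on libraries at 0. DNMT3B had 2.73 TPM in the hatchling, 0 in the distal section and male tip, and 2.74 to 4.19 TPM in the other adult libraries. DNMT3B.1 had 3.38 TPM in the hatchling, 0 in the medial section, and 1.35 to 5.94 TPM in the other adult libraries. With 1 TPM added 0 of 7 were at least 2-fold higher, beside 8.27% of coding targets. TET1 was the transcript past 2-fold below the adult libraries, at -1.16 (-1.48 to -0.84), a value near those of MBD5 and MBD5.1, with 7.11 TPM in the hatchling and 10.3 to 19.8 TPM in the arm libraries, but with TMM it was at -0.71 and no longer past 2-fold. UHRF1 was highest in the hatchling on the coding TPM, at 8.82 TPM against 5.25 to 7.34 TPM, but was not apart there from the proximal section. With the deposited TPM it was higher in the medial (4.40) and proximal sections (3.87) than in the hatchling (3.23). In the tips 2 of 7 were at least 2-fold higher and 1 was lower than in the medial and proximal sections, beside 31.3% and 10.7% of coding targets. The median of the 7 was 0.74. TDG was among those higher, at 1.06 (0.56 to 1.57), but was at 0.47 with the deposited TPM and at 0.65 with TMM, and with the deposited TPM UHRF1 was past 2-fold lower (-1.01). DNMT3B and DNMT3B.1 accounted for the other calls in the tips. In the distal section 1 of 7 was higher and 1 was lower, both of this pair, beside 14.6% and 5.86% of coding targets. Between the tips 1 of 7 was past 2-fold, beside 8.21% of coding targets higher and 4.39% lower in the female tip. Between the proximal and medial sections 1 of 7 was past 2-fold, beside 3.59% higher and 3.42% lower in the proximal section. Both of these calls were again from this pair.

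Partners of MBD2 in the vertebrate NuRD complex were named in the study's tables for 2 genes, the histone deacetylase HDAC1 and the demethylase KDM1A, with a pair of transcripts each. Each pair is listed as 1 gene. The counts of KDM1A and KDM1A.1 summed to a whole number in all 6 libraries and those of HDAC1 and HDAC1.1 in none, so a difference between paired transcripts may again reflect how reads were divided, which was not tested. The summed level of HDAC1 and HDAC1.1 was 15.1 TPM (medial) to 27.3 TPM (female tip), and that of KDM1A and KDM1A.1 was 16.8 TPM (male tip) to 24.5 TPM (distal). HDAC1.1 was at 18.6 and 22.3 TPM in the tips, 16.2 in the hatchling and 7.60 to 10.9 in the sections, and was 2-fold higher in the tips than in the medial and proximal sections, at 1.25 on the log2 scale (1.05 to 1.44). It was at 0.66 with the deposited TPM and at 0.74 with TMM, no longer past 2-fold, and HDAC1 was then at least 2-fold lower (-1.32 and -1.24). HDAC1 had 12.2 TPM in the proximal section, 11.1 in the distal and 3.83 to 5.38 in the other 4 libraries, and was 2-fold higher in the proximal than in the medial section (1.17, 0.85 to 1.50), but not with the deposited TPM (0.98). KDM1A had 14.3 to 22.3 TPM. KDM1A.1 had 1.81 to 3.70 TPM in 5 libraries and less than 1 estimated count in the female tip. Of the 4 transcripts, 1 was at least 2-fold higher in the hatchling (KDM1A.1), beside 11.8% of coding targets. In the tips 1 was higher (HDAC1.1) and 1 lower (KDM1A.1), beside 31.3% and 10.7%. With 1 TPM added KDM1A.1 was past 2-fold in neither comparison. It was at 0.72 in the hatchling, beside 8.27% of coding targets higher, and at -0.93 in the tips, beside 8.36% lower. In the proximal section 1 was higher than in the medial section, beside 3.59%. In the female tip 1 was lower than in the male tip, beside 4.39%. In the distal section 0 were called, beside 14.6% of coding targets that were higher and 5.86% that were lower. MBD2 was highest in the male tip and lowest in the medial section, but only 2 of its 15 pairs of libraries were apart. Its highest library also changed with the scaling, so no order of MBD2 was set beside those of these transcripts.

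For each member, the 2 coding transcripts whose log2(TPM + 1) followed it most closely over the 6 libraries were taken from the 13417 with a mean of at least 50 estimated counts. With so few libraries, high coefficients arise for many transcripts, and they are given as a description. MBD5 was followed most closely by Ocbimv22025958m, which the study's tables name HDAC4.2, a class of histone deacetylase known in vertebrates as a corepressor, with a Pearson r of 0.999 and 17.3 TPM in the hatchling, 23.7 to 32.0 in the sections and 37.5 and 39.4 in the male and female tips. Its next was Ocbimv22037692m (0.999). MBD5.1 itself came at place 341 for MBD5, at 0.974. MBD5.1 was followed by Ocbimv22028618m (0.999), at 4.81 TPM in the hatchling and 22.4 in the female tip, and by Ocbimv22037676m (0.998). For MBD2.1 they were Ocbimv22013244m (0.997), at 86.2 TPM in the hatchling and 28.8 and 26.6 TPM in the tips, and Ocbimv22012632m (0.995). For MBD4 they were Ocbimv22029816m (0.995) and Ocbimv22009406m (0.983), and for MBD2 they were Ocbimv22016231m (0.985) and Ocbimv22001772m (0.972). Between members, MBD2.1 had r of -0.74 with MBD5 and of -0.78 with MBD5.1. For MBD2.1, MBD5.1 came at place 11227 of 13417, so many transcripts had a more negative r. Within the arm of OB-5, MBD2.1, MBD5 and MBD5.1 were each highest in the distal section on the coding TPM, but none was with the deposited TPM. From the medial to the proximal section MBD2.1 went from 2.44 to 2.23 TPM, MBD5 from 28.7 to 33.0 and MBD5.1 from 11.3 to 13.8. No sections were apart for MBD2.1. MBD2 and MBD4 had r of 0.26 with each other and at most 0.46 with MBD5 or MBD5.1.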

How the data were processed

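The authors built libraries from 250 ng of rRNA-depleted RNA and sequenced paired ends of 150 bp. Reads were checked with FastQC 0.11.5 and trimmed with Trimmomatic 0.36, Fastp additionally removed poly-G from the hatchling's, and kallisto with bias correction quantified the annotated transcripts. The kallisto version was not given in the sources used here, and the reference was the published *O. bimaculoides* genome, which the study names by a project accession. The deposited values per target were estimated counts, which divide shared reads, and TPM. From these, TPM over coding targets was recomputed, leaving out 1771 non-coding targets.

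Since conditions had 1 library each, p-values were not computed. Log2 ratios had 0.5 counts added to each estimated count. Intervals (95%) were exact Poisson for levels, conditional binomial for pairs of libraries and normal approximations for means and for ratios of ratios. Targets with at least 20 estimated counts over the libraries compared were the background, and a 2-fold difference was the call. Python 3.11.15, numpy 2.4.6, pandas 2.3.3, scipy 1.17.1, matplotlib 3.10.9 and, for TMM factors only, edgeR 4.0.16 in R 4.3.3 (estimated counts rounded) were used. Calls and the conditional binomial interval, the latter at higher counts than those of MBD2.1, were tested on simulated data. The other intervals and the division of shared reads were not. Alternatives were the deposited TPM, TMM, removal of the 10 most abundant coding targets, an added 1 TPM, other count minima, full lengths, and leaving out libraries.

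The members and lists were chosen with earlier results of these data known. Named transcripts were the members, list transcripts past 2-fold or highest or lowest, and the 2 most like each member. The sums over transcripts of a locus or gene, the MBD5.1 to MBD2 ratio and the values relative to the median were added after seeing the data. Names come from the study's tables. Protein accessions matched 2 of 5 members (MBD2 and MBD4) to the RefSeq genes of ASM119413v2, and no sequences or coordinates are given. A sex that the labels give for the hatchling was not used.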

Additional observations from a re-analysis of the deposited data

How the results depend on the processing

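No paired analysis was possible because each condition was 1 library. In the hatchling, 2 members were past 2-fold in either direction (MBD5 and MBD5.1). The count was 1 with TMM and relative to the median, a setting chosen after seeing the data, where the member was MBD2.1 (1.25 and 1.16, higher) and neither MBD5 nor MBD5.1 was past 2-fold. It was also 1 without the 10 most abundant coding targets and with 1 TPM added, where the member was MBD5 (-1.15 and -1.17). It ran from 1 to 3 when single arm libraries were left out. In the tips the count of 1 (MBD5.1) stayed 1 with the deposited TPM, with TMM and relative to the median, but the member was then MBD2.1 (-1.56, -1.39 and -1.47). It became 0 with 1 TPM added or with the distal section added to the tips, and ran from 0 to 3 when single libraries were left out. Between the tips, 2 in place of 1 of the 7 other DNA methylation transcripts were past 2-fold with the deposited TPM and with TMM. Of the 10 most alike transcripts, 4 were named again at a minimum of 200 counts. Of the 25 member ratios, 6 changed sign with the deposited TPM and 5 with TMM, none with 1 TPM added or without the 10 most abundant, and 2 of 55 changed sign when a library was left out, both for MBD2 in the tips (-0.14 without the male tip, -0.10 without the medial section). Depth limits MBD2.1 most, at 4.01 to 28.3 counts. No count here has a replicate check.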
